A study of Mus musculus with 21 samples.

Results

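The interferon response genes described here are 34 mouse genes that cells switch on when interferon binds its receptor. They were chosen by name, as the probe sets whose platform gene symbol is 1 of the 34, and their levels were followed across all 7 groups of arrays in the series. A probe set is the group of short probes that reports 1 transcript on an Affymetrix Mouse Genome 430 2.0 array. Of the 45101 probe sets on the array, 61 carried the symbol of a member alone, and they covered 33 of the 34 genes. Ifi44 had no probe set listed under its symbol alone and was not analysed here. Of the 33, 17 had more than 1 probe set, and each gene was represented by the probe set with the highest mean level over all 21 arrays.

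The arrays held RNA from mouse B-lineage cells, with 3 arrays in each group. Sorted bone marrow cells carrying B220, a surface protein of the B lineage, came from wild-type mice, from mice with a Cebpb LAP transgene, from mice labelled as Blnk knockouts, and from mice labelled as carrying both. LAP is an activating form of C/EBPβ, a transcription factor. BLNK is the adaptor that carries the pre-B cell receptor's signal to the enzymes behind it. The remaining groups were LB31 cells, a pre-B leukaemia line derived from a mouse without Blnk and cultured in interleukin 7 at 5 ng/ml. The pMY retrovirus they had received was either empty or held the cDNA of Blnk or of its loss-of-function mutant YF, so these 3 groups shared the line's genome and its culture. LB31 is 1 line, and the sources used here do not give the promoter that drives the LAP transgene. Nor do they say whether the 3 arrays of a group stand for separate animals or cultures, so the p-values measure the spread between these arrays alone, and it may be technical.

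Type I interferons bind a receptor of IFNAR1 and IFNAR2 chains, whose kinases JAK1 and TYK2 phosphorylate STAT2 among other proteins. STAT2 and IRF9 are parts of a factor that binds the interferon-stimulated response element, or ISRE, in the promoters of responding genes, whereas interferon gamma acts through a GAS element. The products sense viral RNA, block translation and replication, and feed back on the pathway, and many of them are also transcribed at a low basal level in blood-forming cells that have met no virus. In B-lineage cells, interferon is known to restrain growth that depends on interleukin 7.

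Promoters of 5 members are shown as examples of members that carry the ISRE letters among those the comparisons turn on. Cmpk2 and Samhd1, which fell among the most in LB31 and in marrow in turn, have RefSeq promoters in which these letters were not found. Rsad2 fell among the most in LB31, Ifit3 fell in marrow labelled as knockout, and the 3 guanylate-binding protein genes changed with BLNK in LB31. Each runs from 250 bases before to 50 bases after an annotated transcript start, 5′ to 3′ on the gene's own strand, from RefSeq on build GRCm38.p6. Capitals mark matches to the ISRE letters, which are GAAA, any 2 bases and GAAA again, and all of the matches shown lie on the opposite strand and are therefore read as the reverse complement.
Rsad2 promoter, chr12:26456403-26456702, minus strand: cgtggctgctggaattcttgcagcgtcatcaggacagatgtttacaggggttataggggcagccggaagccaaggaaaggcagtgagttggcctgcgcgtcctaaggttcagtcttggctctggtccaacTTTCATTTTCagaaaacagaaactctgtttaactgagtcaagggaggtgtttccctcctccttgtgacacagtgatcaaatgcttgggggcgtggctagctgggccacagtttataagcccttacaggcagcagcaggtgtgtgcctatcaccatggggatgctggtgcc
Ifit3 promoter, chr19:34583279-34583578, plus strand: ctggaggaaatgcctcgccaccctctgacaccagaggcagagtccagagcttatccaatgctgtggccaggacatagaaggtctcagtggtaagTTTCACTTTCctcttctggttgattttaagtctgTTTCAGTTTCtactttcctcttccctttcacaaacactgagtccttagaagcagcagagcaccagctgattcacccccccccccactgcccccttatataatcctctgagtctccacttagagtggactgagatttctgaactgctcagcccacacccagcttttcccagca
Gbp7 promoter, chr3:142530086-142530385, plus strand: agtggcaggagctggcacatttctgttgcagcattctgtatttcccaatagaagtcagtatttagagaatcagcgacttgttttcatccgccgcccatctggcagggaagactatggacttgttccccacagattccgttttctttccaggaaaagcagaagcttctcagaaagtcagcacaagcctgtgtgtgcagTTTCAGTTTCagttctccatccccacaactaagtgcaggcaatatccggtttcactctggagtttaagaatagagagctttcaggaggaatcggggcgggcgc
Gbp3 promoter, chr3:142559794-142560093, plus strand: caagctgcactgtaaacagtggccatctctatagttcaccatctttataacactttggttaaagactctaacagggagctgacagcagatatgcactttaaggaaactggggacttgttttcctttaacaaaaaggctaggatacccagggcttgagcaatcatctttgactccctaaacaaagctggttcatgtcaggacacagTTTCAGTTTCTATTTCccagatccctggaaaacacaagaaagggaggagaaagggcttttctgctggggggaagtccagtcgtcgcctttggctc
Gbp2 promoter, chr3:142620413-142620712, plus strand: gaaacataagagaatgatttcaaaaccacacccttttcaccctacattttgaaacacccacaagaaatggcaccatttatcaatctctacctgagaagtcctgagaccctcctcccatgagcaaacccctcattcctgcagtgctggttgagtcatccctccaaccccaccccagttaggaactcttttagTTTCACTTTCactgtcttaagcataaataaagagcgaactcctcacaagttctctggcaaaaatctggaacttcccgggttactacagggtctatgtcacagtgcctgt

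The first base of the match lies at -120 from that transcript start in Rsad2, at -156 and -122 in Ifit3, at -53 in Gbp7, at -45 and -39 in Gbp3, where the matches overlap each other, and at -59 in Gbp2. Of the 34 members, 25 had a promoter in the RefSeq table. The ISRE letters, searched on both strands, were found for 12 of these 25, against 3.99% of the 27025 genes in the table. The GAS letters TTCNNNGAA were found for 6 of the 25, against 9.55% of genes. By the comparison of empty-vector LB31 with knockout-labelled marrow, 6 of the 17 lower members with a promoter, both higher ones and 4 of the 5 not called held ISRE letters. Gbp3 has another RefSeq promoter, in which 0 ISRE matches were found. No member's ISRE match overlapped a GAS match (0 promoters). Such a match is a description of the letters, not a binding site.

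Levels are given throughout as log2(signal + 4) after quantile normalization of the arrays fitted together, in the order of replicates 1, 2 and 3. Changes are differences on that scale, given ± SE with n = 3 arrays per group, and they understate the change of dim genes. A gene entered a fit if at least 3 of its arrays put the gene above the array's 40th percentile, a level of 4.20 among the marrow arrays, 3.87 among the LB31 arrays and 4.06 over all arrays. Adjusted p-values come from limma with Benjamini-Hochberg adjustment over every gene of the fit, are two-sided, and call a gene under 0.05. Of the members, 32 entered the marrow fit, 29 the LB31 fit and 33 the fit of all arrays. Oas3 did not enter the first, nor Ifit1, Oasl2, Mx1 and Mx2 the second. Mx1, Mx2 and Oasl2 lay at or below that percentile on all 9 LB31 arrays and entered the last fit through marrow alone, so a difference against LB31 had to be a fall. Ifit1 lay at or below the percentile on 2 of the 3 empty-vector arrays and on all 3 with BLNK and all 3 with YF. It too entered the last fit only because of marrow.

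Replicate arrays correlated at 0.963 to 0.980 over all genes, and the median signal of an array ran from 15.3 to 31.4. Cebpb signal followed the LAP label in marrow, at 10.05 ± 0.15 (SD, n = 3) in LAP transgenic and 9.90 ± 0.08 in LAP knockout-labelled cells against 5.43 ± 0.10 in wild-type and 5.02 ± 0.35 in knockout-labelled cells. Blnk signal did not follow its label: it was 12.37 ± 0.24 in knockout-labelled marrow and 12.44 ± 0.09 in wild-type marrow, and 8.56 ± 0.06 in LB31 with BLNK against 9.63 ± 0.02 with the empty vector. Which part of the transcript its probes cover is not given in the files, so the knockout and the vector are named below by their labels. All 10 measured B-lineage identity genes lay above the filter level on every array. The B220 gate also held myeloid RNA, since S100a8, a neutrophil gene, averaged 13.06 to 13.68 in the marrow groups and 2.64 to 3.28 in LB31. Array 3 of LAP transgenic marrow and array 1 of knockout-labelled marrow stood apart in such genes, at summed neutrophil signals of 72288 and 17559 against 22153 to 53768 on the other 10 marrow arrays.

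Across the 7 groups, the members were mostly higher in marrow than in LB31. Of the 33, 14 had their highest group mean in wild-type marrow, where 14.1% of all genes had theirs, and 8 in knockout-labelled marrow, against 7.93% of all genes. The lowest group mean lay in LB31 with BLNK for 16 members, against 17.1% of all genes, in LB31 with YF for 8 and in LB31 with the empty vector for 3. Every LB31 array lay below every marrow array for 19 of the 33 members, against 19.6% of all genes. No member had every LB31 array above every marrow array (0 of 33, against 18.8% of all genes). The 14 members whose arrays overlapped were Ifih1, Zbp1, Irf7, Stat2, Ifit2, Ifit3, Oas2, Oas3, Eif2ak2, Mx2, Gbp2, Gbp3, Gbp7 and Xaf1.

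**Figure D1:**
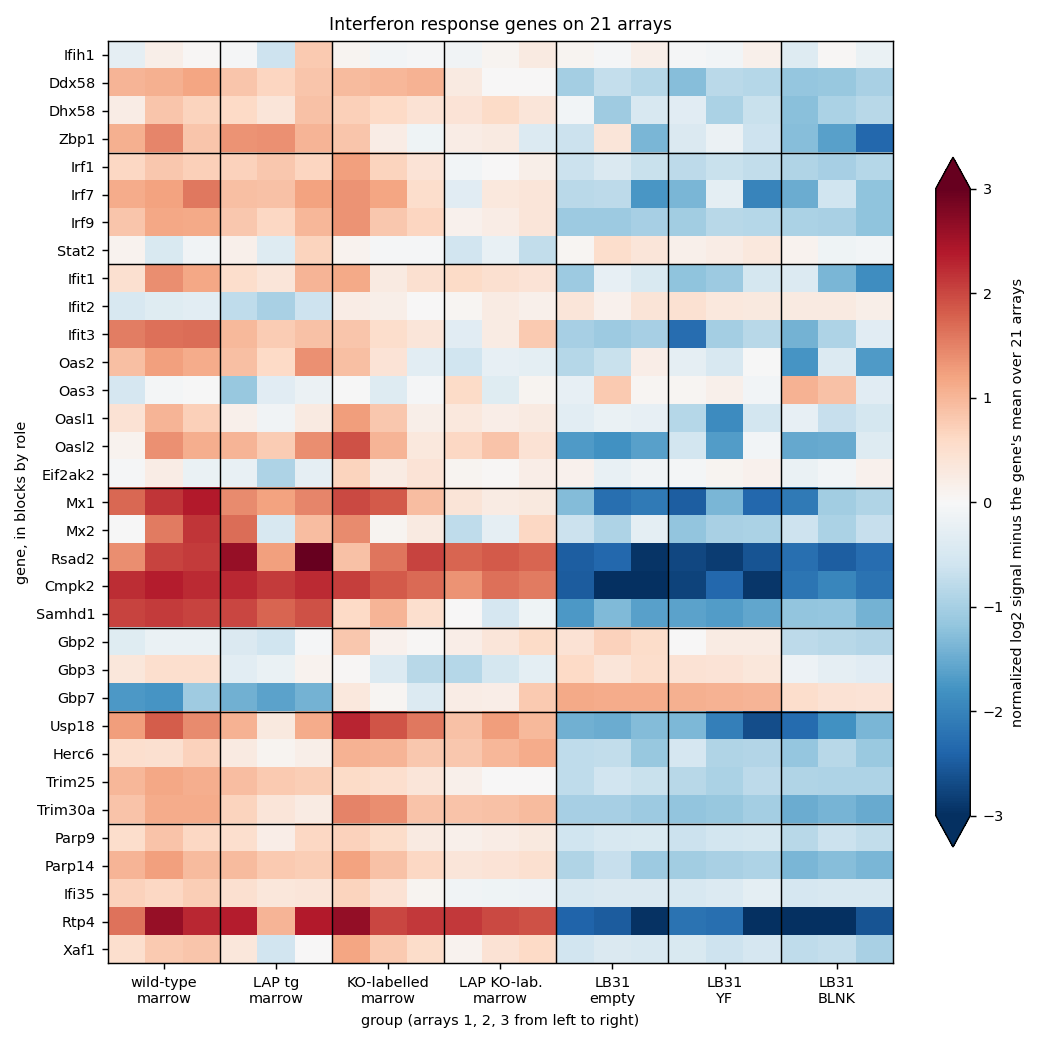
Level of each of the 33 measured members on each of the 21 arrays, coloured as the difference from that member's mean over all arrays in log2 units, with members ordered by role and arrays by group. The 9 LB31 columns are lower than the 12 marrow columns for 19 members, and the rows of Gbp3 and Gbp7 do not follow that pattern.

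The comparison of empty-vector LB31 with knockout-labelled marrow set a leukaemia line against sorted marrow that carried the same Blnk label. Cebpb signal differed between them, at 10.22 ± 0.10 (SD, n = 3) in empty-vector LB31 against 5.02 ± 0.35 in knockout-labelled marrow. In LAP knockout-labelled marrow Cebpb was 9.90 ± 0.08, near its level in the line. Of 33 members tested, 24 were lower and 2 higher in LB31, where 59.3% of all genes were called, with 29.9% of genes lower and 29.4% higher. The median member change was -1.22, against 0.07 over all genes. Against LAP knockout-labelled marrow, 21 members were lower and 3 higher, where 58.8% of all genes were called, with 30.4% of genes lower and 28.4% higher. The member median there was -0.88, against 0.04 over all genes. Both comparisons used the same empty-vector arrays.

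Members that act on viral replication and nucleotides were lower in 4 cases of 5 against both marrow groups. Cmpk2 encodes a mitochondrial nucleotide kinase and lies beside Rsad2 on chromosome 12, 12665 bases from it. Cmpk2 read 3.84, 3.35 and 2.62 on the 3 empty-vector arrays, 8.40, 8.18 and 8.04 on the knockout-labelled and 7.66, 7.98 and 7.89 on the LAP knockout-labelled marrow arrays. It fell by 4.93 ± 0.22 (SE, adjusted p = 3.74e-14) against knockout-labelled marrow and fell by 4.57 ± 0.22 (SE, adjusted p = 1.6e-13) against LAP knockout-labelled marrow, with no overlap between line and marrow. Cmpk2 read 8.55, 8.69 and 8.57 in wild-type and 8.60, 8.43 and 8.57 in LAP transgenic marrow, 4.13, 4.36 and 4.11 in LB31 with BLNK and 3.55, 3.96 and 3.41 with YF. The lowest Cmpk2 value of any marrow array was thus above the highest of any LB31 array. Cmpk2 was at or below the filter level on all 3 empty-vector and all 3 YF arrays, which limits the size of its fall. Its change against knockout-labelled marrow ran from -5.53 to -3.24 over the alternative settings and left-out arrays.

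Rsad2 encodes viperin, a radical-SAM enzyme that makes a chain-terminating nucleotide. Rsad2 read 5.15, 5.28 and 4.69 on the 3 empty-vector arrays, 8.49, 9.24 and 9.64 on the knockout-labelled and 9.37, 9.46 and 9.38 on the LAP knockout-labelled marrow arrays. The LB31 arrays lay together and the marrow arrays spread over a wide range, all of them higher. In LB31, Rsad2 fell by 4.08 ± 0.38 (SE, adjusted p = 5.71e-09) against knockout-labelled marrow and by 4.36 ± 0.38 (SE, adjusted p = 2.35e-09) against LAP knockout-labelled marrow. Rsad2 read 9.02, 9.66 and 9.73 in wild-type and 10.23, 8.86 and 11.33 in LAP transgenic marrow, 5.37, 5.15 and 5.33 in LB31 with BLNK and 4.89, 4.78 and 5.04 with YF. Array 3 of LAP transgenic marrow held the highest Rsad2 value of the series.

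Mx1 encodes a dynamin-like GTPase that traps viral nucleocapsids. Mx1 read 3.53, 2.58 and 2.72 on the 3 empty-vector arrays, 6.82, 6.68 and 5.76 on the knockout-labelled and 5.23, 5.10 and 5.13 on the LAP knockout-labelled marrow arrays. It fell by 3.48 ± 0.36 (SE, adjusted p = 2.91e-08) and fell by 2.21 ± 0.36 (SE, adjusted p = 1.77e-05) in the same order of comparisons, and no LB31 array reached a marrow array. Mx1 read 6.56, 6.98 and 7.21 in wild-type and 6.25, 6.06 and 6.30 in LAP transgenic marrow, 2.73, 3.81 and 3.94 in LB31 with BLNK and 2.38, 3.46 and 2.48 with YF. All 9 LB31 arrays were at or below the filter level for Mx1, so the size of its fall depends on the pseudocount: against knockout-labelled marrow it was -4.20 with a pseudocount of 1 and -2.31 with 16. Samhd1, the enzyme that breaks down deoxynucleotides, fell by 2.27 ± 0.13 (SE, adjusted p = 3.43e-12) against knockout-labelled and fell by 1.36 ± 0.13 (SE, adjusted p = 1.35e-08) against LAP knockout-labelled marrow. Mx2, the other Mx gene, 73175 bases from Mx1 on chromosome 16, was not called, at -1.22 ± 0.55 (SE, adjusted p = 0.0645) against knockout-labelled marrow.

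Among genes of the ISG15 and ubiquitin systems, all 4 members were lower in LB31 than in either marrow group. Usp18 encodes the protease that removes ISG15 from proteins and also blocks the interferon receptor. Usp18 read 4.28, 4.23 and 4.42 on the 3 empty-vector arrays, 8.0, 7.60 and 7.31 on the knockout-labelled and 6.59, 6.98 and 6.70 on the LAP knockout-labelled marrow arrays. It fell by 3.32 ± 0.30 (SE, adjusted p = 3.41e-09) and by 2.44 ± 0.30 (SE, adjusted p = 3.89e-07) against these groups, with no overlap between the groups. Usp18 read 6.96, 7.54 and 7.13 in wild-type and 6.76, 6.0 and 6.82 in LAP transgenic marrow, 3.42, 3.90 and 4.34 in LB31 with BLNK and 4.38, 3.66 and 3.06 with YF. Herc6, the main ISG15 ligase of the mouse, fell by 1.83 ± 0.14 (SE, adjusted p = 2.53e-10) against knockout-labelled marrow, and Trim30a, a TRIM protein that restrains inflammatory signalling in mice, fell by 2.27 ± 0.12 (SE, adjusted p = 8.26e-13).

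Trim25 encodes the ubiquitin ligase that activates the RNA sensor RIG-I. Trim25 read 9.52, 9.70 and 9.61 on the 3 empty-vector arrays, 10.85, 10.79 and 10.65 on the knockout-labelled and 10.43, 10.29 and 10.28 on the LAP knockout-labelled marrow arrays. The representing probe set fell by 1.16 ± 0.07 (SE, adjusted p = 5.96e-12) against knockout-labelled and fell by 0.73 ± 0.07 (SE, adjusted p = 1.11e-08) against LAP knockout-labelled marrow. Another Trim25 probe set was called the other way against LAP knockout-labelled marrow, at 0.65 (adjusted p = 0.0016), so the direction for this gene depends on the probe set. Trim25 read 11.27, 11.44 and 11.37 in wild-type and 11.20, 11.06 and 11.01 in LAP transgenic marrow, 9.38, 9.36 and 9.36 in LB31 with BLNK and 9.44, 9.34 and 9.49 with YF. All 9 LB31 arrays of the representing probe set lay below all 12 marrow arrays.

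Rtp4 encodes a receptor-transporting protein that also restrains viral RNA. Rtp4 read 4.20, 4.11 and 3.62 on the 3 empty-vector arrays, 9.23, 8.61 and 8.72 on the knockout-labelled and 8.73, 8.57 and 8.51 on the LAP knockout-labelled marrow arrays. It fell by 4.87 ± 0.33 (SE, adjusted p = 3.96e-11) against knockout-labelled and fell by 4.63 ± 0.33 (SE, adjusted p = 1.07e-10) against LAP knockout-labelled marrow, and the groups were far apart. With the mean of its probe sets, the Rtp4 changes were -3.06 and -2.68, and as deposited -5.25 and -5.03. On 5 of the 9 LB31 arrays Rtp4 lay at or below the filter level. Rtp4 read 8.24, 9.21 and 8.86 in wild-type and 8.95, 7.62 and 8.97 in LAP transgenic marrow, 3.06, 3.11 and 4.0 in LB31 with BLNK and 4.39, 4.33 and 3.56 with YF. The other 4 measured members of this group, the ADP-ribosyltransferases Parp9 and Parp14, Ifi35 and the pro-apoptotic Xaf1, were lower too against both marrow groups. Their falls against knockout-labelled marrow ran from -0.84 for Ifi35 to -1.80 for Parp14. Ifi35 read 9.80, 9.86 and 9.85 on the 3 empty-vector arrays, 10.96, 10.71 and 10.36 on the knockout-labelled and 10.18, 10.15 and 10.14 on the LAP knockout-labelled marrow arrays. Ifi35, a leucine-zipper protein, had another probe set called higher in LB31 than in LAP knockout-labelled marrow, at 0.52 (adjusted p = 0.00195), against -0.32 (adjusted p = 0.00627) for the representing one. Ifi35 read 10.98, 10.91 and 11.02 in wild-type and 10.77, 10.63 and 10.65 in LAP transgenic marrow, 9.79, 9.81 and 9.80 in LB31 with BLNK and 9.81, 9.87 and 9.99 with YF. On the representing probe set no LB31 array reached a marrow array.

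Of the 8 genes that act on RNA and translation, 5 were lower in LB31 than in knockout-labelled marrow by the representing probe set, among them Eif2ak2, whose probe sets disagree. Oasl2 encodes a protein of the oligoadenylate synthetase family. Oasl2 read 2.31, 2.19 and 2.36 on the 3 empty-vector arrays, 5.90, 5.01 and 4.33 on the knockout-labelled and 4.63, 4.87 and 4.43 on the LAP knockout-labelled marrow arrays. It fell by 2.79 ± 0.45 (SE, adjusted p = 1.5e-05) and fell by 2.35 ± 0.45 (SE, adjusted p = 0.000118) against the same marrow groups. Oasl2 read 4.11, 5.37 and 5.09 in wild-type and 5.02, 4.75 and 5.39 in LAP transgenic marrow, 2.47, 2.48 and 3.62 in LB31 with BLNK and 3.45, 2.32 and 3.92 with YF. All 9 LB31 arrays were at or below the filter level for Oasl2, and against knockout-labelled marrow its change was -4.02 with a pseudocount of 1 and -1.47 with 16. Ifit1 and Ifit3, whose products bind foreign RNA ends, fell by 1.22 ± 0.37 (SE, adjusted p = 0.00667) and by 1.60 ± 0.32 (SE, adjusted p = 0.000193) in turn. Ifit1 was at or below the filter level on 2 of the 3 empty-vector arrays. Its change ran from -1.80 to -0.77 over the alternative settings and left-out arrays. Ifit2, from the same cluster on chromosome 19, changed by 0.16 ± 0.10 (SE, adjusted p = 0.195) and was not called. Oas2 and Oas3, which make the activator of RNase L, changed by -0.77 (adjusted p = 0.0665) and 0.34 (adjusted p = 0.505) and were not called either.

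Eif2ak2 encodes PKR, the kinase that halts translation on double-stranded RNA. Eif2ak2 read 7.28, 6.95 and 7.06 on the 3 empty-vector arrays, 7.84, 7.41 and 7.57 on the knockout-labelled and 7.25, 7.21 and 7.36 on the LAP knockout-labelled marrow arrays. The arrays of the line overlapped those of wild-type and LAP knockout-labelled marrow. The representing probe set fell by 0.51 ± 0.17 (SE, adjusted p = 0.0115) against knockout-labelled marrow, but another probe set of the gene was called higher there, at 1.0 (adjusted p = 8.68e-05). Eif2ak2 read 7.13, 7.38 and 6.95 in wild-type and 6.95, 6.23 and 6.90 in LAP transgenic marrow, 6.97, 7.07 and 7.29 in LB31 with BLNK and 7.09, 7.25 and 7.28 with YF. No direction can therefore be given for Eif2ak2 as a gene.

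Of the 4 sensors of viral RNA and DNA 3 were lower in LB31 than in knockout-labelled marrow, and likewise 3 of the 4 transcription factors. Ddx58, which encodes RIG-I, fell by 1.86 ± 0.12 (SE, adjusted p = 1.02e-11) against knockout-labelled marrow and Dhx58, which encodes LGP2, fell by 1.12 ± 0.23 (SE, adjusted p = 0.000267). With the mean of its 3 probe sets Dhx58 was not called (adjusted p = 0.0939), nor against LAP knockout-labelled marrow (adjusted p = 0.413). The Z-nucleic-acid sensor Zbp1 fell by 0.85 ± 0.35 (SE, adjusted p = 0.0438). The Zbp1 call was lost with a pseudocount of 1, without a filter, and without array 1 of wild-type, LAP transgenic, knockout-labelled, empty-vector or YF cells, array 2 of knockout-labelled or array 3 of empty-vector cells, with adjusted p up to 0.291. Ifih1, which encodes MDA5, changed by 0.09 ± 0.23 (SE, adjusted p = 0.753) and was not called. Among the factors, Irf7, which drives interferon gene transcription, fell by 2.13 ± 0.35 (SE, adjusted p = 2.13e-05), and Irf9, the DNA-binding partner of STAT2, fell by 2.0 ± 0.14 (SE, adjusted p = 8.42e-11). Irf1, a factor induced through GAS elements, fell by 1.35 ± 0.13 (SE, adjusted p = 1.38e-08). Stat2 changed by 0.30 ± 0.22 (SE, adjusted p = 0.261) against knockout-labelled marrow, which was not called, and rose by 0.82 ± 0.22 (SE, adjusted p = 0.00287) against LAP knockout-labelled marrow. That rise was not called on the values as deposited, where the change of Stat2 was 0.01 (adjusted p = 0.966).

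Of the 3 guanylate-binding protein genes, whose GTPase products attack vacuoles that hold pathogens, 2 were higher in LB31. Gbp7 read 10.84, 10.83 and 10.82 on the 3 empty-vector arrays, 10.03, 9.76 and 9.29 on the knockout-labelled and 9.92, 9.91 and 10.49 on the LAP knockout-labelled marrow arrays. Gbp7 rose by 1.14 ± 0.17 (SE, adjusted p = 6.59e-06) in LB31 against knockout-labelled marrow and rose by 0.72 ± 0.17 (SE, adjusted p = 0.00112) against LAP knockout-labelled marrow, with no overlap in either. Gbp3 read 8.87, 8.63 and 8.80 on the 3 empty-vector arrays, 8.31, 7.87 and 7.44 on the knockout-labelled and 7.42, 7.75 and 7.97 on the LAP knockout-labelled marrow arrays. Gbp3 rose by 0.89 ± 0.16 (SE, adjusted p = 6.08e-05) and rose by 1.05 ± 0.16 (SE, adjusted p = 9.1e-06) in the same comparisons, again with every empty-vector array above those marrow arrays. As deposited, 1 member was higher in each comparison: the Gbp3 rise against knockout-labelled marrow was 0.41 (adjusted p = 0.0583) and the Gbp7 rise against LAP knockout-labelled marrow 0.43 (adjusted p = 0.0538), neither called. Wild-type marrow held Gbp3 at 8.60, 8.79 and 8.78, which overlapped the empty-vector arrays. Gbp2 changed by 0.24 ± 0.17 (SE, adjusted p = 0.236) against knockout-labelled marrow and was not called. Gbp7, Gbp3 and Gbp2 lie in that order on chromosome 3, with 9865 and 47450 bases between neighbours.

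**Figure D2:**
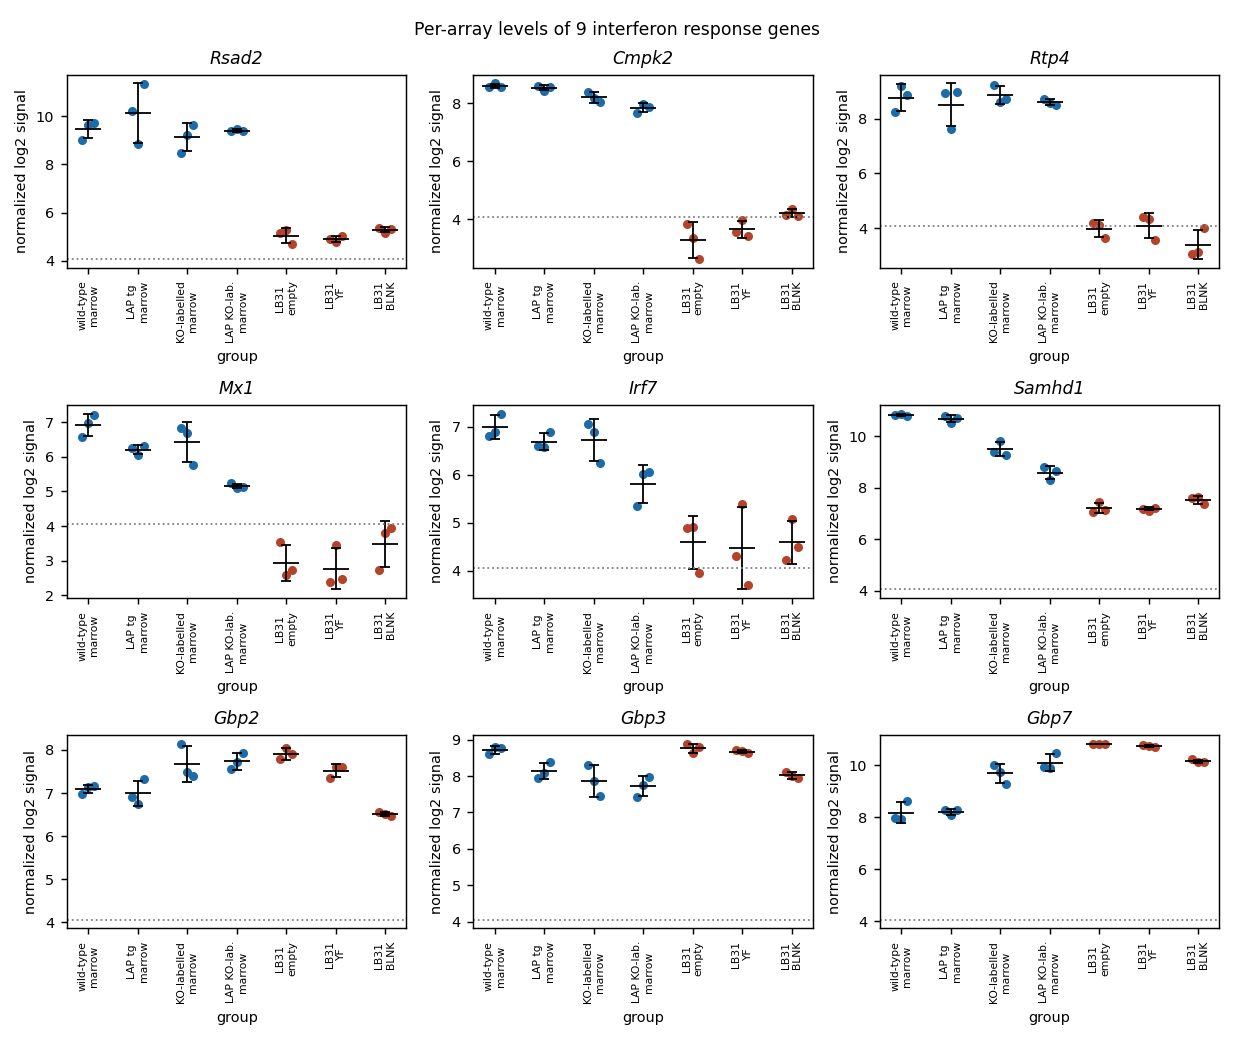
Level of 9 members in log2(signal + 4), normalized over all arrays, with 1 point per array (blue for marrow, red for LB31) and bars at the mean ± SD of each of the 7 groups. The dotted line is the filter level of 4.06, around which the LB31 points of Cmpk2, Rtp4 and Mx1 lie, while Gbp7 is higher in LB31 than in most marrow arrays.

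Markers of other cells moved with this comparison. The 11 measured mature B cell genes summed to 14852 to 19542 signal units in knockout-labelled marrow and 245 to 295 in LB31, and all 11 were called lower in the line. The 17 monocyte and macrophage genes summed to 9875 to 29336 over the marrow groups and 820 to 1009 in LB31, with 16 called lower against knockout-labelled marrow, and the 15 neutrophil genes to 17559 to 72288 and 82.3 to 169, with 14 called lower. Plasmacytoid dendritic cell genes, 7 in number, summed to 6137 to 7980 in knockout-labelled marrow and 1959 to 2667 in LB31. In LB31, between 9 and 13 of the neutrophil genes and between 5 and 9 of the monocyte genes were at or below the filter level on an array, while Csf1r averaged 4.85 to 5.33 against 9.85 to 10.66 in marrow. The part of these cells in the members' falls was not tested, and in such bulk RNA fewer cells of a type and less RNA per cell cannot be told apart. The line, its culture, its origin and, against knockout-labelled marrow, its Cebpb signal differ together from marrow and cannot be told apart.

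Within marrow, the Blnk label alone came with changes in both directions. Of 32 members tested, 3 were higher and 5 lower in knockout-labelled than in wild-type marrow, where 17.1% of all genes were called, 8.38% higher and 8.69% lower. Over the members the median change was -0.09, against 0.01 over all genes. The split depended on the scaling: as deposited, with all genes shifted by a median of 0.30, 7 members were higher and 4 lower. Of the 11 other tested probe sets of the called members, 5 were called in the same direction and 6 were not called.

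The largest rise was that of Gbp7. Gbp7 read 8.05, 8.01 and 8.69 in wild-type, 8.33, 8.16 and 8.36 in LAP transgenic, 10.0, 9.74 and 9.31 in knockout-labelled and 9.90, 9.89 and 10.44 in LAP knockout-labelled marrow. All 6 arrays of the knockout-labelled groups lay above all 6 of the others. Gbp7 rose by 1.43 ± 0.21 (SE, adjusted p = 0.000421) in knockout-labelled against wild-type marrow. Gbp3 read 8.65, 8.83 and 8.83 in wild-type, 8.03, 8.16 and 8.45 in LAP transgenic, 8.37, 7.94 and 7.54 in knockout-labelled and 7.52, 7.84 and 8.04 in LAP knockout-labelled marrow. Gbp3, its neighbour, fell by 0.82 ± 0.19 (SE, adjusted p = 0.00976), and the knockout-labelled arrays lay below the wild-type ones. Ifit2 read 7.46, 7.56 and 7.62 in wild-type, 7.19, 7.0 and 7.30 in LAP transgenic, 8.13, 8.08 and 7.91 in knockout-labelled and 7.96, 8.16 and 8.05 in LAP knockout-labelled marrow. Ifit2 rose by 0.50 ± 0.11 (SE, adjusted p = 0.00652), with both knockout-labelled groups above both others.

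Samhd1 showed the deepest fall among the members. Samhd1 read 10.75, 10.82 and 10.75 in wild-type, 10.74, 10.48 and 10.64 in LAP transgenic, 9.41, 9.79 and 9.31 in knockout-labelled and 8.84, 8.36 and 8.72 in LAP knockout-labelled marrow. The groups with the knockout label lay below the others with no overlap, and those with LAP besides lay lowest. Against wild-type, Samhd1 fell by 1.27 ± 0.13 (SE, adjusted p = 3.22e-05) in knockout-labelled marrow. Ifit3 read 7.30, 7.40 and 7.43 in wild-type, 6.78, 6.58 and 6.69 in LAP transgenic, 6.65, 6.37 and 6.22 in knockout-labelled and 5.54, 6.11 and 6.61 in LAP knockout-labelled marrow. Ifit3 was highest in wild-type marrow on every array and fell by 0.97 ± 0.22 (SE, adjusted p = 0.00744). Trim25 read 11.19, 11.35 and 11.29 in wild-type, 11.11, 10.98 and 10.93 in LAP transgenic, 10.79, 10.73 and 10.59 in knockout-labelled and 10.38, 10.25 and 10.24 in LAP knockout-labelled marrow. The 4 groups of Trim25 did not overlap and stood, from high to low, in the order wild-type, LAP transgenic, knockout-labelled and LAP knockout-labelled. Trim25 fell by 0.57 ± 0.08 (SE, adjusted p = 0.000209) with the knockout label. Cmpk2 also fell, by 0.38 (adjusted p = 0.0288), and Herc6 rose by 0.38 (adjusted p = 0.0311). Both of these calls were lost without some single arrays of those groups, where the adjusted p reached 0.108 for Cmpk2 and 0.111 for Herc6. Cmpk2 was also not called as deposited, at -0.11 (adjusted p = 0.487), or in 1 fit of all arrays (adjusted p = 0.234). Herc6 was not called under median centring (adjusted p = 0.0574), with the mean of probe sets (adjusted p = 0.276) or in that fit (adjusted p = 0.0505).

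LAP alone came with 1 call. Of 32 members, 0 were higher and 1 was lower in LAP transgenic than in wild-type marrow, where 3.99% of all genes were called, 2.11% higher and 1.88% lower. The median over the members was -0.26, against 0.0 over all genes. Trim30a read 10.14, 10.37 and 10.38 in wild-type, 9.95, 9.67 and 9.57 in LAP transgenic, 10.73, 10.65 and 10.14 in knockout-labelled and 10.15, 10.15 and 10.22 in LAP knockout-labelled marrow. Trim30a was lower on every LAP transgenic array than on every wild-type array and fell by 0.56 ± 0.14 (SE, adjusted p = 0.0432). That call was lost without any 1 of the wild-type arrays, without LAP transgenic array 2 or 3 and without several arrays of the knockout-labelled groups, with adjusted p up to 0.144. Other members with sizeable differences were not called, among them Xaf1 at -0.76 ± 0.21 (SE, adjusted p = 0.0644) and Ifit3 at -0.70 ± 0.22 (SE, adjusted p = 0.0902). In limma, 13 of the 32 had an unadjusted p under 0.05, against 2777 of 13342 genes. A negative change was seen in 25 of the 32, against 49.5% of all genes. Under median centring 8 members were called lower, and the share of all genes called in that setting is not given here.

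Marrow with both labels differed most from wild-type. Of 32 members, 15 were lower and 4 higher, where 31.2% of all genes were called, 14.7% lower and 16.5% higher. Members had a median change of -0.48, all genes one of 0.04. By role, 2 of 4 sensors, 3 of 4 transcription factors, 2 of 7 RNA and translation effectors, 3 of 5 replication and nucleotide effectors and 3 of 5 of the ADP-ribosyltransferase and other group were lower. Among the RNA and translation effectors 1 was higher. Of the 3 guanylate-binding protein genes 2 were higher and 1 lower, and of the 4 ISG15 and ubiquitin genes 1 was higher and 1 lower.

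Samhd1 fell by 2.13 ± 0.13 (SE, adjusted p = 1.05e-07), and Gbp7 rose by 1.83 ± 0.21 (SE, adjusted p = 2.24e-05), from the values given above. Mx1 read 6.71, 7.10 and 7.32 in wild-type, 6.43, 6.25 and 6.47 in LAP transgenic, 6.95, 6.83 and 5.98 in knockout-labelled and 5.46, 5.32 and 5.36 in LAP knockout-labelled marrow. Mx1 was lower on all 3 arrays with both labels than on any of the other 9, and fell by 1.67 ± 0.23 (SE, adjusted p = 0.000111). Oas2 read 6.22, 6.52 and 6.41 in wild-type, 6.22, 5.94 and 6.65 in LAP transgenic, 6.22, 5.77 and 5.02 in knockout-labelled and 4.72, 5.09 and 5.04 in LAP knockout-labelled marrow. Oas2 fell by 1.44 ± 0.27 (SE, adjusted p = 0.00135), and arrays with both labels overlapped only array 3 of knockout-labelled marrow. Irf7 read 6.94, 7.02 and 7.37 in wild-type, 6.74, 6.73 and 7.02 in LAP transgenic, 7.17, 7.01 and 6.41 in knockout-labelled and 5.59, 6.22 and 6.25 in LAP knockout-labelled marrow. Irf7 was below every other marrow array on the 3 arrays with both labels and fell by 1.09 ± 0.22 (SE, adjusted p = 0.0022). Ifit3 fell by 1.29 ± 0.22 (SE, adjusted p = 0.000507) and Trim25 fell by 0.98 ± 0.08 (SE, adjusted p = 6.99e-07).

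Among the sensors, Zbp1 and Ddx58 were called. Zbp1 read 6.80, 7.17 and 6.59 in wild-type, 7.07, 7.09 and 6.77 in LAP transgenic, 6.60, 6.02 and 5.70 in knockout-labelled and 6.03, 6.08 and 5.41 in LAP knockout-labelled marrow. Zbp1 fell by 1.01 ± 0.24 (SE, adjusted p = 0.00658), with all 3 arrays below the wild-type ones. Ddx58 read 8.74, 8.80 and 8.91 in wild-type, 8.57, 8.38 and 8.56 in LAP transgenic, 8.69, 8.72 and 8.78 in knockout-labelled and 8.03, 7.78 and 7.78 in LAP knockout-labelled marrow. The 3 arrays of Ddx58 with both labels lay below all 9 others, and it fell by 0.96 ± 0.09 (SE, adjusted p = 5.86e-06). Dhx58 and Ifih1 were not called. Irf9 fell by 0.76 ± 0.16 (SE, adjusted p = 0.00249) and Irf1 by 0.63 ± 0.15 (SE, adjusted p = 0.00549), and Stat2, the remaining factor, was not called. The other calls were falls of Gbp3, Ifi35, Cmpk2, Parp14 and Parp9, from -0.40 to -0.97, and rises of Gbp2, Ifit2 and Herc6, from 0.40 to 0.61. The calls of Gbp2, Herc6 and Parp9 were lost without some single arrays of the groups compared, with adjusted p up to 0.0967 for Gbp2. Herc6 was also not called with the mean of probe sets, at 0.11 (adjusted p = 0.634). As deposited, Parp9 at -0.14 (adjusted p = 0.345) and Irf1 at -0.36 (adjusted p = 0.0508) were not called.

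Setting both labels against the knockout label alone gives the LAP change within knockout-labelled marrow. Of 32 members, 10 were lower and 0 higher, where 7.65% of all genes were called, 4.35% lower and 3.3% higher. The member median was -0.38, against 0.03 over all genes. Mx1 fell by 1.21 ± 0.23 (SE, adjusted p = 0.00534), Ddx58 fell by 0.87 ± 0.09 (SE, adjusted p = 7.3e-05) and Samhd1 fell by 0.86 ± 0.13 (SE, adjusted p = 0.0014), each with the 3 arrays with both labels below the 3 knockout-labelled ones. Usp18 read 7.08, 7.63 and 7.24 in wild-type, 6.90, 6.20 and 6.95 in LAP transgenic, 8.08, 7.68 and 7.41 in knockout-labelled and 6.74, 7.10 and 6.84 in LAP knockout-labelled marrow. Usp18 fell by 0.83 ± 0.22 (SE, adjusted p = 0.0387), its knockout-labelled arrays being the higher ones. Irf1 read 9.42, 9.58 and 9.49 in wild-type, 9.47, 9.58 and 9.44 in LAP transgenic, 9.98, 9.46 and 9.22 in knockout-labelled and 8.75, 8.85 and 8.99 in LAP knockout-labelled marrow. The Irf1 arrays with both labels were the lowest of the 12, and it fell by 0.69 ± 0.15 (SE, adjusted p = 0.0119). Irf7 fell by 0.84 ± 0.22 (SE, adjusted p = 0.035), and Irf9, Ifi35, Parp14 and Trim25 fell by less.

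Those calls leaned on single arrays. Without array 1 or array 2 of LAP knockout-labelled marrow 5 members were called, and without array 1 or array 2 of knockout-labelled marrow 6. Usp18, Irf7, Irf9, Parp14 and Ifi35 lost their calls without some of these arrays, and Irf1 without LAP knockout-labelled array 1, at an adjusted p of 0.0512. Parp14 was also not called with the mean of probe sets. Mx1, Ddx58, Samhd1 and Trim25 were called with each array left out in turn. Calls over all genes moved as well, from 536 to 1380 with single arrays left out, in place of 1021.

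Against LAP transgenic marrow, the arrays with both labels had 12 members lower and 6 higher of 32, where 27% of all genes were called, 12.5% lower and 14.5% higher. Over the members the median was -0.42, against 0.02 over all genes. As deposited, with all genes shifted by a median of 0.40, the split was 5 lower and 9 higher. The largest differences were in Samhd1, which fell by 1.98 ± 0.13 (SE, adjusted p = 2.67e-07), Gbp7, which rose by 1.79 ± 0.21 (SE, adjusted p = 3.21e-05), and Oas2, which fell by 1.32 ± 0.27 (SE, adjusted p = 0.00279). Zbp1 fell by 1.14 ± 0.24 (SE, adjusted p = 0.00362), Mx1 fell by 1.01 ± 0.23 (SE, adjusted p = 0.00526) and Ifit2 rose by 0.89 ± 0.11 (SE, adjusted p = 4.71e-05). Gbp7, Ifit2, Herc6, Gbp2, Eif2ak2 and Trim30a were the members higher with both labels. The calls of Irf7, Irf9, Gbp2, Eif2ak2, Trim30a and Parp14 were lost without some single arrays, with an adjusted p of 0.0669 for Irf7 without LAP knockout-labelled array 1.

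Whether the LAP change differed between the knockout-labelled and wild-type backgrounds was tested as an interaction. In limma, 0 of 32 members were called, where 1.73% of all genes were, 0.487% upward and 1.24% downward, and 6 of 32 had an unadjusted p under 0.05, against 1994 of 13342 genes. The member median was -0.18. Ddx58 stood at -0.56 ± 0.13 (SE, adjusted p = 0.0569) and Samhd1 at -0.71 ± 0.19 (SE, adjusted p = 0.0932), neither called. Without knockout-labelled array 3, Irf1 and Samhd1 were called, and without LAP transgenic array 2 or LAP knockout-labelled array 1, Ddx58.

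**Figure D3:**
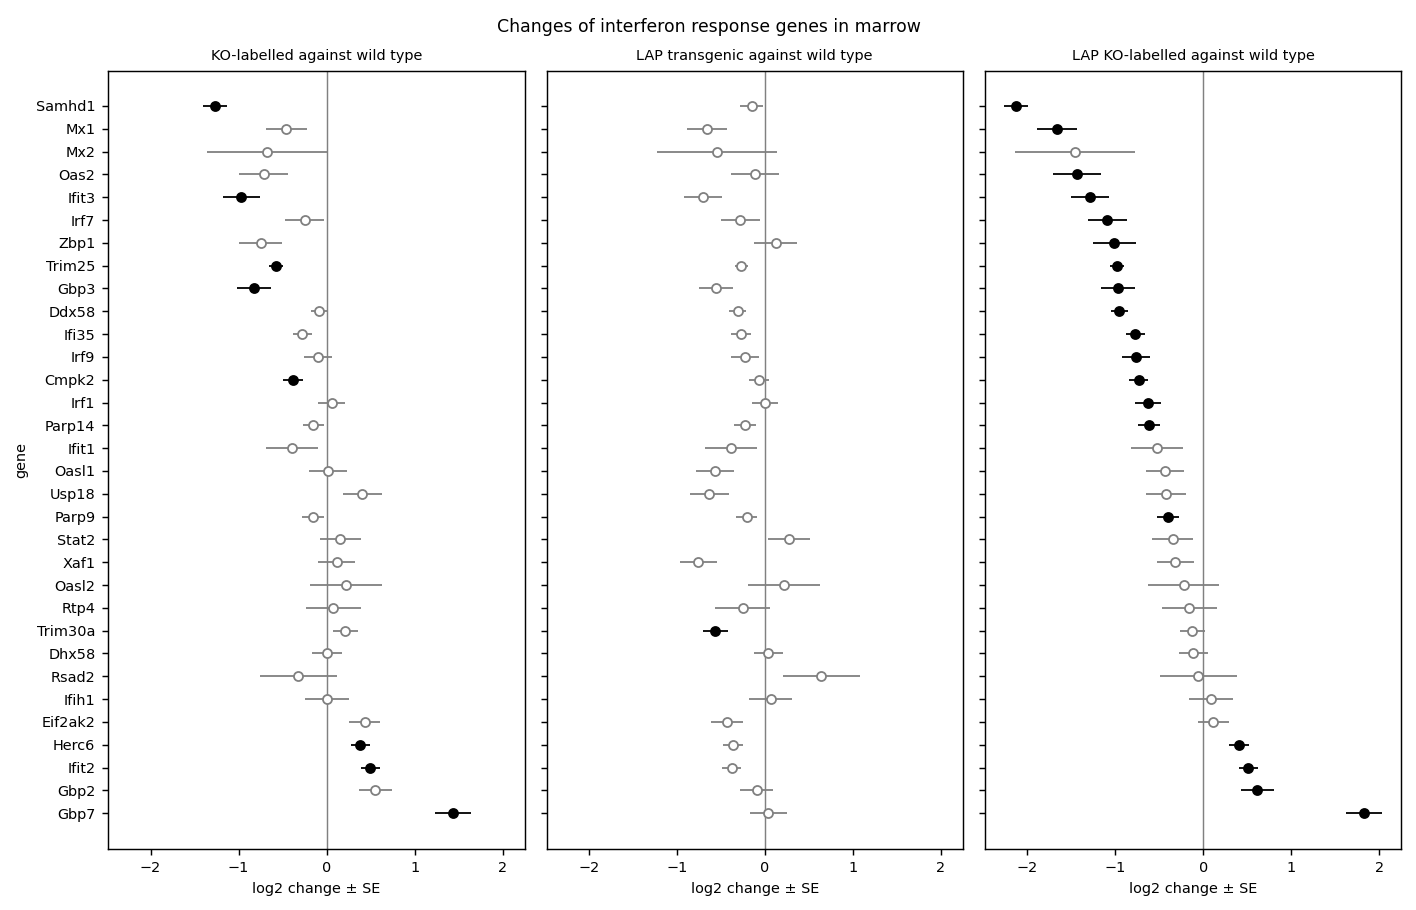
Log2 change ± SE of each of the 32 members tested in marrow, in 3 panels that set each labelled group against wild-type, with filled points where the adjusted p was under 0.05. In the panel of both labels, Samhd1 has the lowest value and Gbp7 the highest, at -2.13 and 1.83.

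Markers of cell types moved with these groups as well. The 11 mature B cell genes summed to 34311 to 39210 in wild-type, 27248 to 29392 in LAP transgenic, 14852 to 19542 in knockout-labelled and 2471 to 2867 in LAP knockout-labelled marrow. All 11 were called lower with both labels than in each other marrow group, and 10 of 11 lower with the knockout label than in wild-type. The 7 plasmacytoid dendritic cell genes, from a cell type rich in interferon genes, summed to 4378 to 4787 with both labels and 6137 to 8121 in the other marrow groups, and 5 of 7 were called lower and 2 higher than in wild-type. Of the 17 monocyte and macrophage genes, 2 were called lower and 1 higher with both labels than in wild-type. The 15 neutrophil genes summed to 41777 to 53768 with both labels and 22153 to 27995 in wild-type, with 3 called higher and 0 lower, and the 12 T and NK cell genes to 837 to 1124 and 510 to 580, with 2 of 10 tested called higher and 0 lower. On any marrow array at most 1 of the mature B cell genes and 0 of the monocyte genes lay at or below the filter level, and the part of these cells in the members' changes was not tested.

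In LB31, BLNK came with lower levels of 9 of the 29 members tested and higher levels of 0, against the empty vector. Among all genes 15.9% were called, 8.55% lower and 7.34% higher. The members' median was -0.27, against -0.01 over all genes. By role, all 3 guanylate-binding protein genes, 3 of 5 of the ADP-ribosyltransferase and other group, 2 of 4 ISG15 and ubiquitin genes and 1 of 4 transcription factors were lower, and 0 of 4 sensors, 0 of 6 RNA and translation effectors and 0 of 3 replication and nucleotide effectors.

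The guanylate-binding protein genes, whose promoters are printed above, were the called members with the largest changes. Gbp2 read 7.68, 7.94 and 7.80 with the empty vector, 6.37, 6.30 and 6.25 with BLNK and 7.23, 7.49 and 7.49 with YF. Gbp2 fell by 1.50 ± 0.10 (SE, adjusted p = 3.52e-07) with BLNK, and its BLNK-labelled arrays lay below all 6 others. Gbp3 read 8.81, 8.56 and 8.74 with the empty vector, 8.03, 7.91 and 7.83 with BLNK and 8.64, 8.62 and 8.56 with YF. Gbp3 fell by 0.78 ± 0.08 (SE, adjusted p = 1.19e-05), again with no overlap. Gbp7 read 10.92, 10.92 and 10.90 with the empty vector, 10.29, 10.19 and 10.17 with BLNK and 10.86, 10.84 and 10.80 with YF. Gbp7 fell by 0.70 ± 0.04 (SE, adjusted p = 1.44e-07), its BLNK-labelled arrays forming the lower set. Gbp2 and Gbp3 kept their calls under every alternative setting run and with every single array left out, whereas Gbp7 was not called on the values as deposited, at -0.45 (adjusted p = 0.131). Zbp1, at -1.13 ± 0.40 (SE, adjusted p = 0.0754), and Oas2, at -0.78 ± 0.39 (SE, adjusted p = 0.208), had differences of like size that were not called, nor was that of Cmpk2 in the other direction, at 0.84 ± 0.43 (SE, adjusted p = 0.219).

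Parp14 encodes an ADP-ribosyltransferase. Parp14 read 7.21, 7.43 and 7.0 with the empty vector, 6.71, 6.80 and 6.70 with BLNK and 7.05, 7.14 and 7.18 with YF. It fell by 0.48 ± 0.11 (SE, adjusted p = 0.00944), and the BLNK-labelled arrays lay below the rest. Trim30a read 8.24, 8.23 and 8.14 with the empty vector, 7.73, 7.83 and 7.71 with BLNK and 8.04, 8.09 and 8.20 with YF. Trim30a fell by 0.45 ± 0.07 (SE, adjusted p = 0.000718) with no overlap. Irf1 read 8.04, 8.27 and 8.02 with the empty vector, 7.79, 7.68 and 7.82 with BLNK and 7.89, 8.02 and 7.94 with YF. Irf1 fell by 0.35 ± 0.08 (SE, adjusted p = 0.00998), below all 6 other arrays. Xaf1 read 7.65, 7.78 and 7.73 with the empty vector, 7.44, 7.50 and 7.22 with BLNK and 7.76, 7.60 and 7.73 with YF. Xaf1 fell by 0.33 ± 0.09 (SE, adjusted p = 0.0217), with no overlap either, and Trim25 and Parp9 fell by 0.27 and 0.24. These calls depended on the scaling: as deposited only Gbp2 and Gbp3 were called of the members (2, both lower), and under median centring 4 were lower and 1 higher. Those settings put the median of all genes at 0.11 and 0.13. With the mean of probe sets the calls of Parp14, Trim25, Parp9 and Xaf1 were lost. Of the 7 other tested probe sets of called members, 3 were called lower and 4 were not called. The Parp9 call was lost in 7 of 9 fits that left out 1 array, and under 6 of 10 alternative settings. That of Xaf1 was lost in 3 of 9 such fits and under 4 of 10 settings.

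YF, the loss-of-function form, set against the empty vector had 0 of 29 members called in limma, where 0.345% of all genes were called, 0.13% higher and 0.215% lower, and 3 of 29 had an unadjusted p under 0.05, against 2001 of 13034 genes. The member median was -0.08. Gbp2 changed by -0.40 ± 0.10 (SE, adjusted p = 0.0985), Gbp3 by -0.10 ± 0.08 (SE, adjusted p = 0.595) and Gbp7 by -0.08 ± 0.04 (SE, adjusted p = 0.378). Without empty-vector array 1, Gbp2 was called at -0.47 (adjusted p = 0.0196) and Trim25 at -0.26 (adjusted p = 0.017).

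BLNK set directly against YF had 6 members lower and 0 higher, where 9.01% of all genes were called, 5.09% lower and 3.92% higher. The member median was -0.17, against 0.02 over all genes. Gbp2 fell by 1.10 ± 0.10 (SE, adjusted p = 1.05e-05), Gbp3 fell by 0.68 ± 0.08 (SE, adjusted p = 5.43e-05) and Gbp7 fell by 0.62 ± 0.04 (SE, adjusted p = 7.56e-07). Parp14, Trim30a and Xaf1 fell by 0.38, 0.35 and 0.31, and the calls of Parp14 and Xaf1 were each lost without 1 of several arrays, with adjusted p up to 0.15 and 0.189. In 1 fit of all arrays, Gbp7 (adjusted p = 0.0775), Trim30a (adjusted p = 0.168), Parp14 and Xaf1 lost their calls. Parp14 and Xaf1 were also not called with the mean of probe sets. In LB31 the summed monocyte and neutrophil signals stayed within 820 to 1009 and 82.3 to 169, whereas the 7 plasmacytoid dendritic cell genes summed to 1959 to 2052 with BLNK, 2600 to 2667 with the empty vector and 2436 to 2548 with YF, with no overlap. Of the 6 tested, 1 was called lower with BLNK than with the empty vector, Spib, a factor also found in B cells and named after its value was seen, at -0.91 (adjusted p = 2.5e-07). The part of these markers in the members' changes was not tested.

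**Figure D4:**
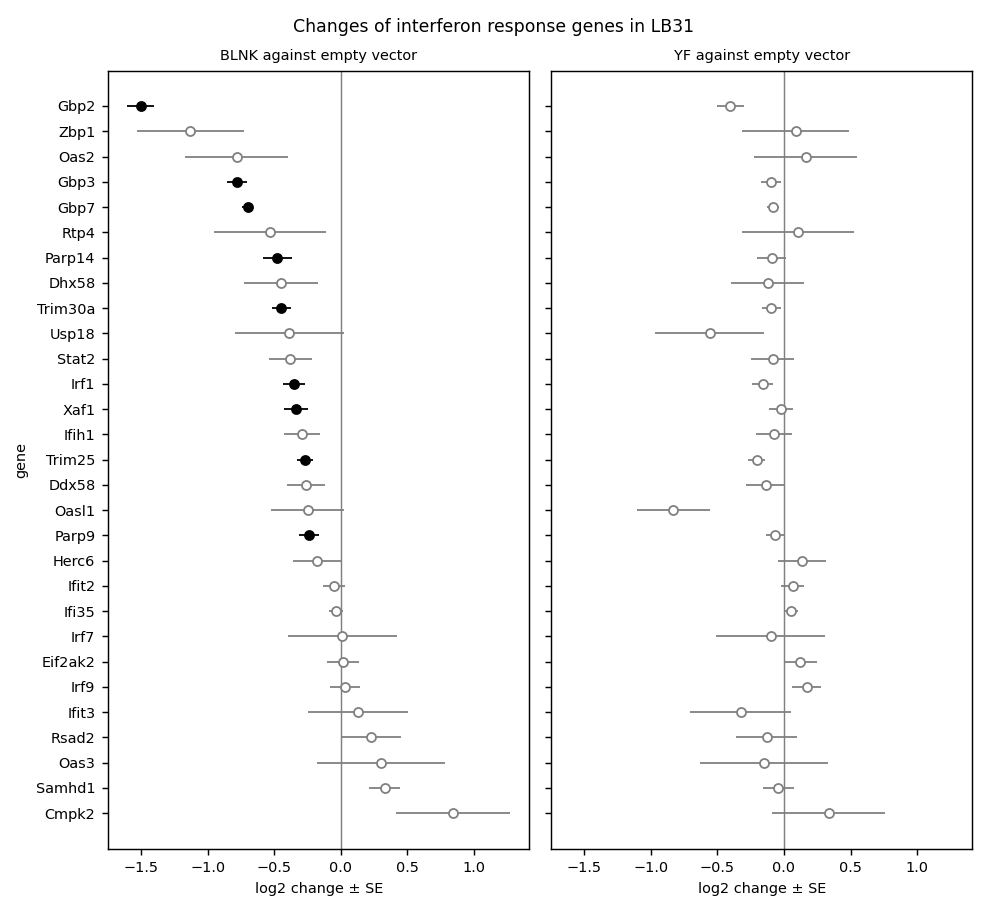
Log2 change ± SE of each of the 29 members tested in LB31, for BLNK and for YF against the empty vector, with filled points where the adjusted p was under 0.05. With BLNK 9 points are filled, Gbp2 lowest at -1.50, and with YF none is.

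Arrays of 1 marrow group also differed among themselves in the members as a set. Of the 32 members tested, 29 were highest on array 1 of knockout-labelled marrow among its 3 replicates, where 30.8% of all genes were, and 24 were lowest on array 3, against 33.2% of all genes. The mean level over the members on the knockout-labelled arrays was 8.16, 7.86 and 7.63, and that over all genes was 7.08, 7.10 and 7.14. Array 1 of wild-type marrow was lowest for 24 members, against 30.7% of all genes, and array 2 of LAP transgenic marrow for 26, against 34.4%. Array 3 of LAP transgenic marrow was highest for 18, against 37.7%. In LB31 no array was highest for more than 15 or lowest for more than 12 of the 29 members. Empty-vector array 2 was highest for 15 and YF array 3 for 14, each against 36.3% of all genes. Arrays 1 and 3 with BLNK were each lowest for 12, against 33.6% and 33.5% of all genes.

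**Figure D5:**
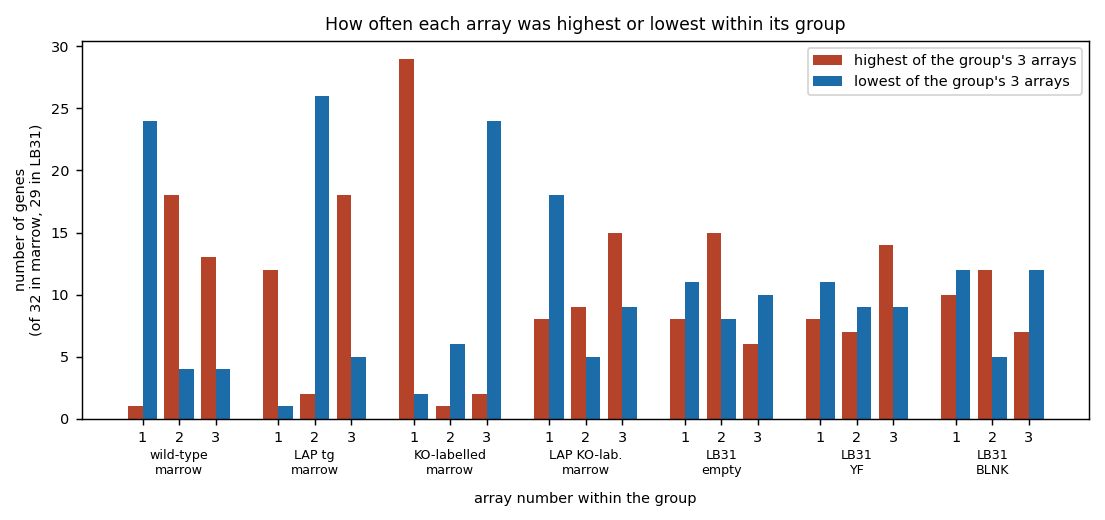
Number of members for which each array was the highest (red) or the lowest (blue) of the 3 arrays of its group, of 32 members in marrow and 29 in LB31. Array 1 of knockout-labelled marrow is the highest for 29 members and array 2 of LAP transgenic marrow the lowest for 26.

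The summed monocyte signal was 9875 on array 1 of knockout-labelled marrow and 15570 and 16734 on its replicates, and the summed neutrophil signal 17559 against 37469 and 40124. On LAP transgenic array 3 they were 29336 and 72288, against 16011 and 12912 and against 33252 and 23865 on arrays 1 and 2. Their part in the members' levels was not tested. Without knockout-labelled array 1, 8 members were lower and 2 higher with the knockout label than in wild-type, and 6 were called between both labels and the knockout label. Without LAP transgenic array 3, 0 were called for LAP against wild-type, and 11 were lower and 5 higher with both labels than with LAP alone. Calls over all genes moved too with single arrays left out, from 1590 to 2684 for the knockout label and 169 to 611 for LAP. They ran from 536 to 1380 for both labels against the knockout label and from 2778 to 3667 against LAP.

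The rest of the pathway was read from lists chosen with earlier results of these data known. Isg15 was not analysed here. Of the 16 tested genes of the receptors and their JAK-STAT chain, 2 were higher and 6 lower with both labels than in wild-type marrow, against 16.5% and 14.7% of all genes. Ifnar1 fell by 0.63 ± 0.11 (SE, adjusted p = 0.000758) and Tyk2 fell by 0.40 ± 0.11 (SE, adjusted p = 0.0125), whereas Ifnar2 changed by 0.02 (adjusted p = 0.9) and Jak1 by -0.16 (adjusted p = 0.238). Socs1, a feedback inhibitor of JAK kinases, fell by 2.29 ± 0.35 (SE, adjusted p = 0.000263). With the knockout label alone 1 was higher and 2 lower, near the 17.1% of all genes called there, Ifnar1 among them at -0.46 (adjusted p = 0.0122).

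In LB31, 3 of these genes were lower and 0 higher with BLNK, where 8.55% of all genes were lower and 7.34% higher. They were the inhibitors Socs3, which fell by 0.99 ± 0.10 (SE, adjusted p = 1.62e-05), and Cish, which fell by 0.69 ± 0.06 (SE, adjusted p = 5.21e-06), and the interferon gamma receptor chain Ifngr1, which fell by 0.48 ± 0.07 (SE, adjusted p = 0.000317). Ifnar1, Ifnar2, Jak1 and Tyk2 changed by -0.23, 0.09, -0.14 and 0.13, with adjusted p-values of 0.125, 0.546, 0.178 and 0.67. Against knockout-labelled marrow, empty-vector LB31 had 11 lower and 3 higher, against 29.9% and 29.4% of all genes. The 3 higher were the inhibitors Cish, Socs1 and Socs3, at 3.09, 2.45 and 2.09. Ifnar2, Jak1, Tyk2 and Ifnar1 fell by 1.43, 1.13, 0.83 and 0.64.

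A list of 82 further interferon-induced genes, of which 69 were analysed here, gave counts in the same comparisons. With both labels, 28 were lower and 5 higher of 68 than in wild-type marrow, against 14.7% and 16.5% of all genes. Compared with the knockout label alone, 18 were lower and 1 higher, against 4.35% and 3.3% of all genes. Ms4a4c fell by 3.33 ± 0.21 (SE, adjusted p = 1.21e-07) against wild-type, and Slfn2, of the Schlafen family, fell by 2.64 ± 0.12 (SE, adjusted p = 5.04e-09). With the knockout label alone 12 were lower and 7 higher than in wild-type, against 8.69% and 8.38% of all genes, and with LAP alone 5 were lower and 0 higher, against 1.88% and 2.11%. In LB31, BLNK had 19 of 61 lower and 1 higher than the empty vector, against 8.55% and 7.34% of all genes, and 14 lower and 0 higher than YF, against 5.09% and 3.92%. YF had 0 called in either direction against the empty vector, where 0.345% of all genes were called. Slfn2 fell by 1.81 ± 0.16 (SE, adjusted p = 3.08e-06) with BLNK and Epsti1 fell by 1.0 ± 0.09 (SE, adjusted p = 3.64e-06). Empty-vector LB31 had 50 of 69 lower and 8 higher than knockout-labelled marrow, against 29.9% and 29.4% of all genes, with Ifi30 at -5.36 and Oas1a at -5.20, and Ifitm1 and Ifitm2 higher at 4.10 and 3.44. Of the interferon ligands, 5 entered that comparison, and Ifnb1 changed by 0.89 (adjusted p = 0.0142) and Ifna1 by -1.48 (adjusted p = 0.00846).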

How the data were processed

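Expression was measured on 21 Affymetrix Mouse Genome 430 2.0 arrays, 1 per sample, per the labels from 100 ng of RNA. The deposited values are probe set intensity values on a linear scale, made by the authors with MAS5, version not given, per the submitters' processing notes. The sources used here do not say whether arrays were scaled to a target, and the number of arrays limits precision.

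A pseudocount of 4 was added, log2 taken, and the arrays of a fit (12 marrow, 9 LB31 or all 21) quantile normalized. Quantile normalization removes any overall difference in message between groups. Of 45101 probe sets, 64 were controls, and 34945 of the others had 1 gene symbol, 932 several and 9160 none. Each of the 18193 genes took its probe set with the highest mean. It entered a fit if at least 3 arrays held it above their 40th percentile. Groups were compared with limma 3.58.1 under R 4.3.3 (lmFit, then eBayes with a mean-variance trend), without covariates, in 11 comparisons. The scripts were tested on simulated data.

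The members and the lists of pathway genes and cell type markers were chosen with earlier results of these data known. Values of every array are given for the called members with the largest change, up to 6 per comparison, and for members whose probe sets disagree in called direction. At most 4 called genes are named per pathway list and comparison, with Ifnar1, Ifnar2, Jak1 and Tyk2 named in some whatever their change. The sources used here do not say whether replicate numbers pair the samples, and the fits took them as unpaired. Same-numbered arrays deviated together with r from -0.10 to 0.27 in marrow, over 0.1 in 2 of 18 pairs. In LB31 r ran from -0.04 to 0.02, over 0.1 in 0 of 9 pairs. With so few arrays these values cannot settle whether samples were paired. Alternatives were other scalings, pseudocounts, filters and uses of probe sets, 1 fit of all arrays, a replicate block and leaving out each array. Promoters came from RefSeq, build GRCm38.p6. No arrays held identical values.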

Additional observations from a re-analysis of the deposited data

How the results depend on the processing

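Calls between LB31 and marrow were the steadiest, at 25 to 27 members against knockout-labelled and 23 to 25 against LAP knockout-labelled marrow when each array was left out in turn. The same ranges were 6 to 10 for the knockout label, 0 to 2 for LAP, 16 to 19 for both labels, 5 to 14 for both labels against the knockout label, 13 to 18 for both labels against LAP, and 0 to 2 for the interaction. In LB31 they were 8 to 10 for BLNK, 0 to 2 for YF and 4 to 8 for BLNK against YF. Calls over all genes were also steadiest for LB31 against marrow, at 8193 to 8851 and 8124 to 8741. They ran from 1590 to 2684 for the knockout label, 169 to 611 for LAP and 3303 to 4615 for both labels. Both labels gave 536 to 1380 against the knockout label and 2778 to 3667 against LAP, and the interaction 133 to 370. In LB31 the all-gene counts were 1480 to 2808 for BLNK, 1 to 1115 for YF and 769 to 1588 for BLNK against YF. For LAP against wild-type marrow, where 1 member was called, 3 were called as deposited, 8 under median centring, 0 without a filter, 0 with the mean of probe sets and 5 in 1 fit of all arrays. For BLNK against the empty vector, 2 were called as deposited and 5 under median centring in place of 9. For YF, 1 was called under median centring (Ifi35). For the interaction, 1 (Ddx58) was called with the 60th percentile filter and 2 (Irf1 and Samhd1) in 1 fit of all arrays. In that fit 3 were called for BLNK against YF in place of 6. Over all genes, the knockout label gave 3592 calls as deposited in place of 2277, both labels against LAP 6023 in place of 3601, LAP 335 as deposited and 1216 in 1 fit of all arrays in place of 533, and both labels against the knockout label 1546 in that fit in place of 1021. For BLNK they were 505 as deposited, 1357 with the mean of probe sets and 928 in 1 fit of all arrays in place of 2072, and for BLNK against YF 553, 678 and 476 in place of 1174. For YF the counts ran from 8 in 1 fit of all arrays to 1345 under median centring in place of 45, and for the interaction from 123 to 613 in place of 231. Some directions reversed. Parp14 with both labels against LAP was 0.0065 as deposited (adjusted p = 0.97), and Ifih1 in LB31 against knockout-labelled marrow -0.56 as deposited (adjusted p = 0.0499). Ifi35 in LB31 against LAP knockout-labelled marrow was 0.036 under median centring (adjusted p = 0.791) and 0.013 with the mean of probe sets (adjusted p = 0.923), and Eif2ak2 with the mean of probe sets was 0.18 against knockout-labelled (adjusted p = 0.112) and 0.53 against LAP knockout-labelled marrow (adjusted p = 9.18e-05). The cause was not tested. As deposited, all genes shifted by a median of -0.42 in LB31 against knockout-labelled and -0.46 against LAP knockout-labelled marrow, by 0.36 with both labels against wild-type and by 0.32 for YF. With the replicate number as a block, which is not known to pair these samples, the counts were 9, 1, 19, 9, 18 and 0 in the marrow comparisons in the order above, 10, 0 and 6 in LB31, and 26 and 24 for LB31 against marrow. The 19 members with every LB31 array below every marrow array became 22 as deposited. Signal near the filter level limits the size of the falls of Mx1, Oasl2, Cmpk2, Rtp4 and Ifit1 in LB31.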
